A study of Mus musculus with 2 samples.

Results

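Insulin and insulin-like growth factor (IGF) signalling was described in mouse kidney through 10 named genes. They are the receptors Insr and Igf1r, the docking proteins Irs1 and Irs2, the ligand Igf1, and the secreted binding proteins Igfbp1, Igfbp3, Igfbp4, Igfbp5 and Igfbp7. Each gene was read from its brightest probe set that carries exactly 1 gene symbol. All 10 genes had such a probe set, out of 22180 genes on the array, and 9 of the 10 were among the 7671 genes whose higher value reached the expression floor of 6 on the log2 scale. The measurement was made in whole kidney of male Iah1-KO mice, which lack the esterase gene Iah1 in the whole body, and of male Iah1-WT mice. Mice of both genotypes were given chow up to an age of 6 weeks and a high-fat diet over the following 12 weeks, lived 1 to a cage, and went without food for 4 hours before death. RNA of 3 mice was pooled for each genotype and hybridised to 1 array, so there are 2 arrays in all and no mouse can be seen on its own. The values below are log2 RMA values, and a difference is always the Iah1-KO value minus the Iah1-WT value.

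Insulin and IGF-1 bind related tyrosine kinase receptors, which phosphorylate the docking proteins Irs1 and Irs2. The docking proteins recruit PI3 kinase, and its product activates the kinase AKT, which in turn holds the FoxO transcription factors out of the nucleus and releases mTOR complex 1. IGF binding proteins carry IGFs outside the cell, lengthen their life and control their access to the receptor. In the kidney, insulin restrains glucose production by the proximal tubule and promotes sodium reabsorption, and the proximal tubule takes up and degrades insulin filtered by the glomerulus.

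With 1 array per genotype no test between the genotypes is possible, and no p-value is given. As a yardstick, each difference was set beside the robust SD of the differences of the 500 genes nearest to it in mean value, called the local spread below. It describes scatter over genes on these 2 arrays, not the spread between mice. A threshold of 1.2-fold (0.26 on the log2 scale) was used for counts. Across the 7671 genes, 9.13% passed this threshold, 5.36% with the higher value in the Iah1-KO pool and 3.77% with the lower value there. Iah1 itself had a value of 3.60 in the Iah1-KO pool and 9.09 in the Iah1-WT pool. Kidney markers were present, with all 10 proximal tubule, all 6 principal cell and all 9 endothelial markers at or above the floor. The adipocyte markers had 0 of 4 measured genes there.

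No gene of the group reached 1.2-fold. Of the 9 genes at or above the floor 0 passed this threshold, against 9.13% of all genes there, and 0 passed 1.5-fold, against 0.43%. With only 9 genes, a count of 0 does not set the group apart from these shares. Their differences lay between -0.18 (Igfbp1) and 0.17 (Irs2). The median was 0.08, against 0.01 over all genes at or above the floor. The difference was above 0 for 7 of the 9 genes and below 0 for Igfbp1 and Igfbp3, while 52.4% of all genes at or above the floor had a difference above 0. Only Igf1r, Irs2 and Igfbp1 differed by more than the local spread.

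**Figure D1:**
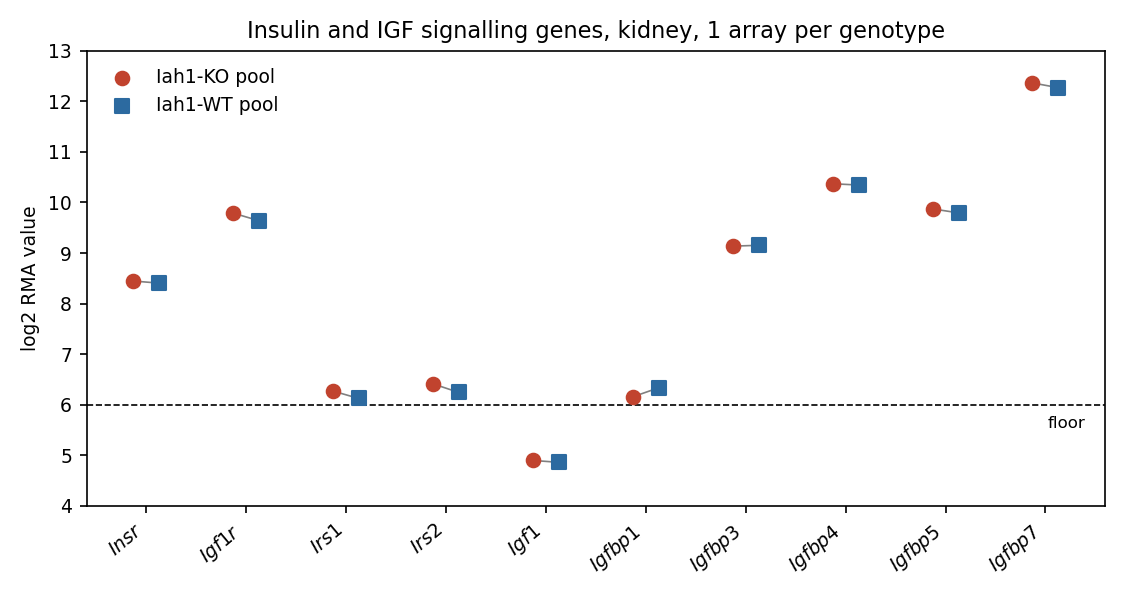
Log2 RMA value (vertical axis) of each of the 10 genes (horizontal axis) in the Iah1-KO pool (red circles) and the Iah1-WT pool (blue squares), 1 array each; the dashed line is the expression floor of 6. The 2 points of each gene lie close together, with Igf1 alone below the floor. Heights of different genes come from different probes and are not comparable.

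Before the values, the promoters of Igfbp1, Irs1 and Irs2 are shown, because Igfbp1 and Irs2 are known in liver as genes that insulin represses through FoxO factors, because Irs1 shares a motif with them, and because the 3 genes differed here in both directions. The stretches are the 130 bases before the annotated gene start, 5′ to 3′ on the strand of the gene, from RefSeq on build GRCm38.p6. Capitals mark TGTTTTG or its reverse complement CAAAACA, the core of the insulin response element described in the promoter of the human IGFBP1 gene.
Igfbp1 (chr11:7197657-7197786, plus strand): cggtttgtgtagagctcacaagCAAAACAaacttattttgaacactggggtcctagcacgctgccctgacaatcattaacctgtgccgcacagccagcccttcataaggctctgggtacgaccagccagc
Irs1 (chr1:82291440-82291569, minus strand): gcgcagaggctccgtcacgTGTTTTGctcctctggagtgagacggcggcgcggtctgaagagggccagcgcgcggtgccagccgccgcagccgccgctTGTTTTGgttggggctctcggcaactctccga
Irs2 (chr8:11008930-11009059, minus strand): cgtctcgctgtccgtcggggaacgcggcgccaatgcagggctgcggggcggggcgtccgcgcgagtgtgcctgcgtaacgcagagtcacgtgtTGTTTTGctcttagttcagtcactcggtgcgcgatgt

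A promoter of 300 bases, 250 before and 50 after the start, was found for 9 of the 10 genes, all but Insr. Both strands were searched for 5 motifs, chosen with the differences known. TGTTTTG was in 3 of the 9 promoters, those of Igfbp1, Irs1 and Irs2, and in 6.28% of all 32851 promoters. Because this motif is known from the human IGFBP1 promoter, its match in Igfbp1 was likely beforehand. The 3 of 9 therefore cannot be read as enrichment. TGTTTTG starts 108 bases before the annotated start of Igfbp1, 37 bases before that of Irs2, and 111 and 32 bases before that of Irs1. The FoxO core TGTTTAC was in 0 of the 9 promoters and in 3.65% of all. TGTTTGC was in 0 of the 9 and 5.07% of all, and TGTTTNC, which takes in both of these, in 0 of the 9 and 20.5% of all. The STAT motif TTCNNNGAA was in 0 of the 9 and 8.30% of all. These are matches of letters in a short window and show no binding.

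The receptors were slightly higher in the Iah1-KO pool. Igf1r, the receptor of IGF-1 and IGF-2, had a value of 9.79 in the Iah1-KO pool and 9.64 in the Iah1-WT pool. Its difference of 0.15, 1.11-fold higher, was 1.53 times its local spread of 0.10, the largest such multiple of the 10 genes, and 13.6% of the 500 genes of similar value differed by at least as much. Insr, the insulin receptor, had 8.45 in the Iah1-KO pool and 8.41 in the Iah1-WT pool. Its difference of 0.04 was under the local spread of 0.10, and 68.8% of genes of similar value differed by at least as much. Of the receptor pair Igf1r lay further from 0 than Insr, and the gap between them was not tested.

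Both docking proteins had the higher value in the Iah1-KO pool, by about the local spread. Irs2, which relays the insulin signal in liver and whose gene is switched on by FoxO factors when insulin is low, had 6.42 in the Iah1-KO pool and 6.24 in the Iah1-WT pool. The difference of 0.17, a 12.6% higher signal, was the highest of the 10 genes, but 32.6% of genes of similar value differed by at least as much. A further probe set, at 3.75 in the Iah1-KO pool and 3.65 in the Iah1-WT pool, carries the symbol Irs2 together with 9530052E02Rik and was not assigned. Irs1, the docking protein best known from muscle and fat, had 6.27 in the Iah1-KO pool and 6.13 in the Iah1-WT pool, a difference of 0.15 against a local spread of 0.17. Its dimmer probe set pointed the other way, at 3.18 in the Iah1-KO pool and 3.32 in the Iah1-WT pool, both below the medians of all probe sets on their arrays (4.03 and 4.05). With both probe sets averaged, the difference of Irs1 was 0.01.

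The ligand Igf1 was below the floor in both pools, at 4.90 in the Iah1-KO pool and 4.86 in the Iah1-WT pool. Most circulating IGF-1 comes from the liver. Its difference of 0.04 compares with a local spread of 0.25, and 88.0% of genes of similar value differed by at least as much. The difference is small against that spread, so no direction can be given for Igf1. A loess correction on mean value gave -0.07 in its place, but it was fitted only to genes at or above the floor.

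Igfbp1 was the member lowest in the Iah1-KO pool relative to the Iah1-WT pool. Its gene is among those that insulin most promptly represses in liver. Igfbp1 had 6.16 in the Iah1-KO pool and 6.34 in the Iah1-WT pool, a difference of -0.18 that corresponds to an 11.7% lower signal. The difference was 1.11 local spreads in size (0.16), and 30.0% of genes of similar value differed by at least as much. Igfbp1, Irs1 and Irs2, whose promoters were printed above, were also the members nearest above the floor. The local spread there was 0.16 to 0.17, against 0.09 to 0.10 for the other 6 genes at or above the floor.

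The other binding proteins lay close together in the 2 pools. Igfbp3, the main carrier of IGFs in blood, had 9.14 in the Iah1-KO pool and 9.15 in the Iah1-WT pool, a difference of -0.02. Igfbp3 and Igfbp1 lie on the same chromosome, 11, as does Igfbp4. Igfbp4, a binding protein that mostly restrains IGF action and is cut by the protease PAPP-A, had 10.37 in the Iah1-KO pool and 10.35 in the Iah1-WT pool, a difference of 0.03. For these genes 85.2% (Igfbp3) and 78.0% (Igfbp4) of genes of similar value differed by at least as much.

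Igfbp5 and Igfbp7 had the higher value in the Iah1-KO pool, each by less than its local spread. Igfbp5, which binds extracellular matrix as well as IGFs, had 9.87 in the Iah1-KO pool and 9.79 in the Iah1-WT pool, a difference of 0.08 against a local spread of 0.10. Igfbp7, a low-affinity IGF binder abundant in vascular endothelium, had 12.36 in the Iah1-KO pool and 12.27 in the Iah1-WT pool, a difference of 0.09 against a local spread of 0.10. Endothelial markers lay on the same side. While 52.4% of all genes at or above the floor lay above 0, 8 of 9 measured endothelial markers did, with a median of 0.10. Their summed linear level was 2547 in the Iah1-KO pool and 2401 in the Iah1-WT pool, with Cdh5, the cadherin of endothelial junctions, at 0.24 and Ehd3, a membrane trafficking protein, at 0.21, and Kdr, a VEGF receptor, as the 1 marker below 0 at -0.13. The part of these cells in the values of Igfbp5 and Igfbp7 was not tested, and in bulk tissue a different number of cells of a type and a different amount of RNA per cell cannot be told apart.

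**Figure D2:**
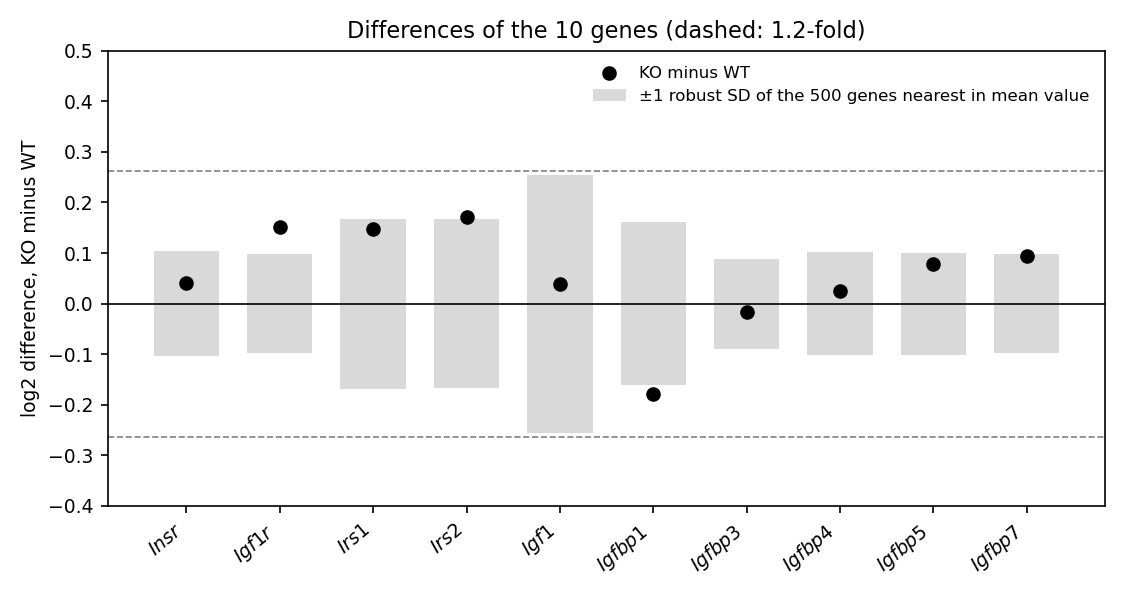
Difference of each of the 10 genes, Iah1-KO minus Iah1-WT, on the log2 scale (vertical axis, black points); the grey bars reach 1 robust SD of the 500 genes nearest in mean value either side of 0, and the dashed lines mark 1.2-fold. Igf1r at 0.15, Irs2 at 0.17 and Igfbp1 at -0.18 lie outside their bars, and no point reaches a dashed line.

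**Figure D3:**
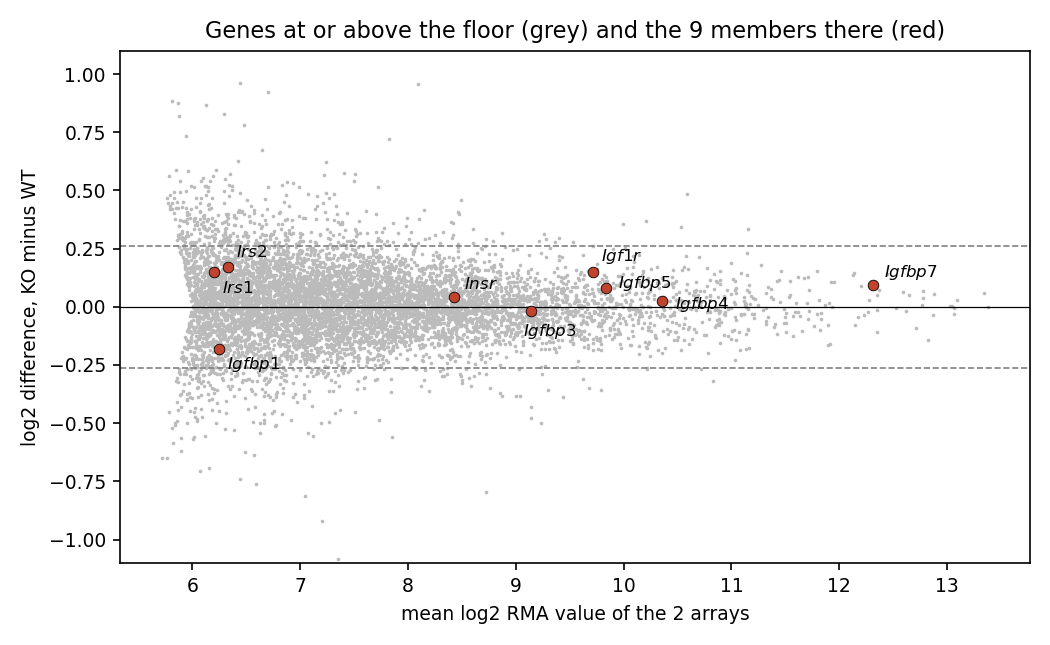
Difference, Iah1-KO minus Iah1-WT on the log2 scale (vertical axis), against the mean log2 RMA value of the 2 arrays (horizontal axis) for the genes at or above the floor (grey), with the 9 genes of the group there in red and dashed lines at 1.2-fold; genes that differ by more than 1.1 either way, Iah1 among them, are not drawn. The red points lie within the grey cloud, which widens towards dim genes.

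Other pathway genes were then counted in 11 lists that were chosen by function. They hold 148 genes besides the 10, of which 131 were measured and 98 were at or above the floor. Of the 98, 6 passed 1.2-fold with the higher value in the Iah1-KO pool (6.12%, against 5.36% of all genes) and 4 with the lower value there (4.08%, against 3.77%). The median over the 98 genes was 0.03. The shares past the threshold were near those of all genes. The 10 genes past the threshold were Bcl6, Stat5a, Htra1, Fbxo40, Eif4ebp2 and Ptpn11 on the higher side and Pdk4, Gsk3b, Srebf1 and Spry1 on the lower side.

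Outside the cell, only 1 of the genes that handle IGF binding proteins was at or above the floor. Htra1, a secreted serine protease that cleaves IGF binding proteins among other matrix substrates, had 8.04 in the Iah1-KO pool and 7.68 in the Iah1-WT pool. Its difference of 0.36, 1.28-fold higher, compares with a local spread of 0.12, and 5 of the 500 genes of similar value differed by at least as much. The proteases Pappa and Pappa2 and the PAPP-A inhibitors Stc1 and Stc2 were below the floor in both pools. So were the other binding protein genes Igfbp2, Igfbp6 and Igfbpl1. Among other receptors, Igf2r, which clears IGF-2, had 8.75 in the Iah1-KO pool and 8.62 in the Iah1-WT pool (0.12), and the growth hormone receptor Ghr had 9.63 in the Iah1-KO pool and 9.70 in the Iah1-WT pool (-0.08). The ligands Igf2 and Ins2, the receptor relative Insrr and the IGF carrier subunit gene Igfals were below the floor.

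Adaptors and inhibitors of the receptors held 2 genes past 1.2-fold, both higher, among 16 that reached the floor, and their median was 0.05. Ptpn11 encodes the phosphatase SHP2, which binds docking proteins and passes the signal on to the ERK cascade. It had 7.85 in the Iah1-KO pool and 7.57 in the Iah1-WT pool, a difference of 0.28 that 2.80% of genes of similar value matched or exceeded. Fbxo40, a ubiquitin ligase subunit that targets Irs1 in mouse muscle, had 7.03 in the Iah1-KO pool and 6.73 in the Iah1-WT pool, a difference of 0.30 that 6.60% matched or exceeded. The adaptor Grb2 differed by -0.19. The other 9 measured genes of this list were below the floor in both pools, and in 5 of them the Iah1-KO value was lower by more than 1.2-fold, with local spreads of 0.22 to 0.28. They were the cytokine signalling suppressors Socs1 (-0.45), Socs2 (-0.39) and Socs3 (-0.27), the receptor inhibitor Grb14 (-0.28) and the pseudokinase gene Trib3 (-0.27). Of the 500 genes of similar value, 60 (Socs1), 50 (Socs2), 148 (Socs3), 110 (Grb14) and 165 (Trib3) differed by at least as much. With no floor, 2570 of all 22180 genes were lower by at least 1.2-fold, against 289 of the 7671 at or above the floor. Whether these 5 genes fell together was not tested. With no floor the median of the list was -0.0016.

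PI3 kinase and AKT genes held 1 gene past the threshold among 18 that reached the floor, and their median was 0.03. Gsk3b, the kinase that AKT inhibits to release glycogen synthesis, had 8.68 in the Iah1-KO pool and 9.06 in the Iah1-WT pool. Its difference of -0.38, 1.31-fold lower, compares with a local spread of 0.10, and 1 of the 500 genes of similar value differed by at least as much. Pik3r3, a regulatory subunit of PI3 kinase, and Akt2, the AKT kinase most tied to insulin, both differed by 0.22. The catalytic subunit gene Pik3ca had 9.10 in the Iah1-KO pool and 9.01 in the Iah1-WT pool.

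The mTOR branch held 1 gene past the threshold among 17 that reached the floor, of which 12 lay above 0, and their median was 0.08. Eif4ebp2, a repressor of cap-dependent translation that mTOR complex 1 inactivates, had 8.56 in the Iah1-KO pool and 8.26 in the Iah1-WT pool. Its difference of 0.30 was matched or exceeded by 2.60% of genes of similar value. Rictor, the defining subunit of mTOR complex 2, differed by 0.23 and Rptor, that of complex 1, by 0.18. In the ERK branch 1 of 9 genes that reached the floor was past the threshold, and the median was -0.02. It was the feedback inhibitor Spry1, which had 6.04 in the Iah1-KO pool and 6.31 in the Iah1-WT pool (-0.27). The exchange factors Sos2 and Sos1 differed by 0.21 and -0.13.

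FoxO factors and genes known as their targets lay on both sides of 0. Of 21 genes at or above the floor 10 had a difference above 0 and 11 below, with a median of -0.01, and 1 was past 1.2-fold on each side. Bcl6, a transcriptional repressor, had 8.57 in the Iah1-KO pool and 7.62 in the Iah1-WT pool, while Pdk4, the pyruvate dehydrogenase kinase, had 7.57 in the Iah1-KO pool and 8.13 in the Iah1-WT pool. Both are targets that FoxO factors raise in other tissues, and they lay on opposite sides of 0. The part of FoxO factors in these values was not tested. The autophagy kinase gene Ulk1 differed by 0.26, just under the threshold. The gluconeogenic genes that insulin represses lay close together in the 2 pools. Pck1 had 12.11 in the Iah1-KO pool and 12.19 in the Iah1-WT pool, and G6pc had 11.22 in the Iah1-KO pool and 11.18 in the Iah1-WT pool. The factor Foxo1 differed by -0.12.

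Of the genes that insulin induces for fat synthesis, 1 of 6 that reached the floor was past the threshold. It was Srebf1, their main regulator, which had 5.78 in the Iah1-KO pool and 6.16 in the Iah1-WT pool (-0.37), so only the Iah1-WT value reached the floor. Its target Elovl6, a fatty acid elongase, differed by 0.14, Fasn, the fatty acid synthase, by 0.12, and the median was 0.09.

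Growth hormone acts through JAK2 and STAT5 and is the main inducer of Igf1 in liver. Of 4 genes at or above the floor Stat5a alone was past the threshold. It had 6.60 in the Iah1-KO pool and 6.08 in the Iah1-WT pool, a difference of 0.52, 1.44-fold higher, that 1.40% of genes of similar value matched or exceeded. Its paralog Stat5b, which lies on the same chromosome, had 7.28 in the Iah1-KO pool and 7.06 in the Iah1-WT pool (0.22). The paralogs are similar in sequence, and how far their probes tell them apart is not known here. The STAT5 targets Cish (-0.27, local spread 0.25) and Socs2 (-0.39, local spread 0.22) were below the floor, as Igf1 was. The median of the list was 0.10 over the 4 genes and -0.02 with no floor.

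Genes for the uptake and breakdown of filtered insulin were all within 1.2-fold. Lrp2, the endocytic receptor megalin, had 11.80 in the Iah1-KO pool and 11.85 in the Iah1-WT pool. Ide, the insulin-degrading enzyme, had 9.02 in the Iah1-KO pool and 9.09 in the Iah1-WT pool. Ceacam1, which promotes insulin clearance in liver, had 8.72 in the Iah1-KO pool and 8.52 in the Iah1-WT pool (0.19). The endocytic receptor gene Cubn was at -0.06. Over the 5 genes the median came to -0.05.

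**Figure D4:**
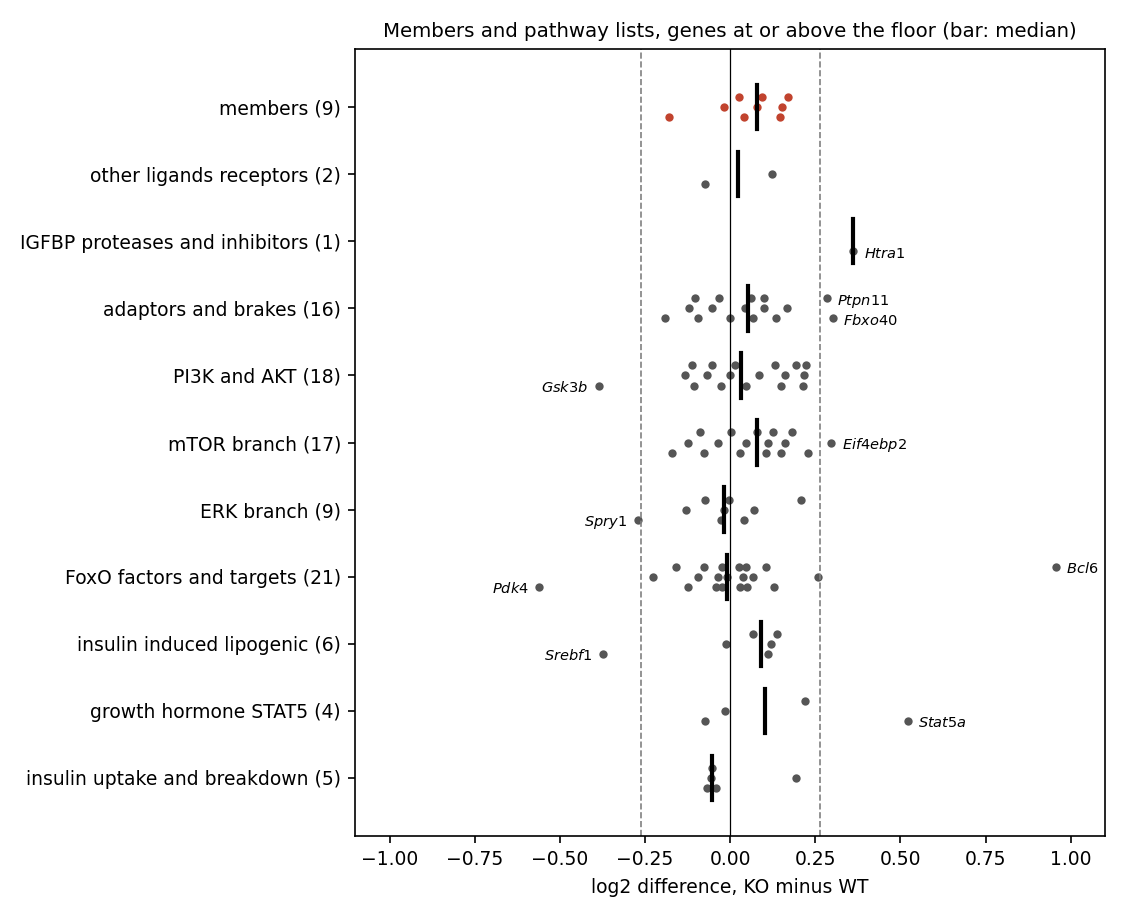
Difference, Iah1-KO minus Iah1-WT on the log2 scale (horizontal axis), of the 9 genes of the group at or above the floor (red, row "members") and of the pathway lists (grey), with the number of genes in brackets, black bars at the medians and dashed lines at 1.2-fold; genes past 1.2-fold are named. The group lies wholly between the dashed lines, and Bcl6 at 0.96, Pdk4 at -0.56 and Stat5a at 0.52 lie furthest out.

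Markers of other kidney cells were counted beside these values. The 10 proximal tubule markers had a median of 0.07, with 7 above 0 and 3 below. Slc22a8 at 0.23 and Hnf4a at 0.16 lay furthest above, and Slc5a12 at -0.14 furthest below. The loop of Henle had 4 markers at the floor or higher, all below 0 with a median of -0.14, among them Cldn10 at -0.24 and Kcnj1 at -0.16. The distal convoluted tubule had 3, with a median of 0.07, Calb1 at -0.14 and Slc12a3 at 0.08. With no floor, which adds Pvalb at -0.33, this median was -0.04, and with a floor of 7 it was -0.03, so its sign depended on the floor. The 6 principal cell markers had a median of 0.15, with 4 above 0 (Aqp4 at 0.57 and Aqp2 at 0.49 furthest) and 2 below (Scnn1b at -0.12 and Avpr2 at -0.02), and the 6 intercalated cell markers one of -0.09, with Atp6v1g3 at -0.81 and Slc4a1 at 0.18. Podocytes had 2 genes at or above the floor, Podxl at 0.10 and Wt1 at 0.02. For fibroblasts, mesangium and smooth muscle, 9 markers gave a median of -0.01, with Tagln at -0.29 and Myh11 at 0.17. Tagln reached the floor only in the Iah1-WT pool (6.07, against 5.78 in the Iah1-KO pool). Macrophage markers lay on both sides of 0. Of the 6 measured, Lyz2 at 0.63, Cx3cr1 at 0.41 and Csf1r at 0.11 reached the floor, while Adgre1 at -0.73, Cd68 at -0.23 and C1qa at 0.04 did not. The median was 0.41 over the first 3 and 0.08 over all 6. Cx3cr1, which sets the median of the first 3, reached the floor only in the Iah1-KO pool (6.16, against 5.75 in the Iah1-WT pool). Of the hepatocyte genes, Alb differed by 0.40 and Ttr by -0.19. The part of the cell mixture in the values of the insulin and IGF genes was not tested.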

How the data were processed

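The authors deposited log2 values per probe set. The submitters' processing notes name RMA and Affymetrix Expression Console 1.3.0 as the tools. The RMA method subtracts background, quantile-normalises the arrays and summarises probes, so a shift shared by most transcripts would not show and dim differences are compressed. Neither the genome build of the array annotation nor the deleted part of Iah1 was known here. Of 41345 probe sets, 23521 carried 1 symbol in GEO's platform annotation, 1814 several and 16010 none. The 10 genes matched the RefSeq gene table (GRCm38.p6) by Entrez number and symbol.

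For each gene the brightest probe set was kept, and the Iah1-WT value was subtracted from the Iah1-KO value. The robust SD is the median absolute deviation times 1.4826. The procedure was tested on simulated data. The shifts simulated there were far larger than the differences of the group, so calls of differences as small as those were not tested. Python 3.11.15, numpy 2.4.6, pandas 2.3.3 and statsmodels 0.14.6 were used. The genes and lists were chosen with earlier results of these data known. Of 218 genes in the 11 pathway and 11 cell type lists, 19 were not analysed here. Named genes are the 10, Iah1, pathway genes past 1.2-fold or among the 3 furthest of their list, and the 2 furthest markers of each cell type; other genes were named after their values were seen. Alternatives were floors of 5, 7 or none, centring, loess (span 0.3), the mean over probe sets and a threshold of 1.5-fold. The number of arrays limits the precision.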

Additional observations from a re-analysis of the deposited data

How the results depend on the processing

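With 1 array per genotype, neither a test nor the spread between mice can be had, and signal over background is not known for genes near or below the floor. The group held 0 genes past 1.2-fold either way under every alternative run: the floors of 5, 7 and none, centring, loess, the mean over probe sets and the threshold of 1.5-fold. Several of these had little or no room to change the count. A floor of 7 and the threshold of 1.5-fold can only take genes away. The floor of 5 kept the same 9 genes, no floor added only Igf1, and averaging probe sets could change only Irs1. The median of the group, 0.08 as deposited, lay between 0.06 and 0.09. None of the 30 alternative differences of single genes moved by as much as the local spread. Averaging probe sets brought Irs1 to 0.01 and below the floor, and loess turned Igf1, below the floor, to -0.07. The counts over all genes, 411 at least 1.2-fold higher and 289 lower, depended on how many dim genes were counted. They were 786 and 638 with a floor of 5, 152 and 115 with a floor of 7, 2288 and 2570 with no floor, and 17 and 16 at 1.5-fold. Centring and loess, added for these counts after the data were seen, gave 381 and 317, and 347 and 351. Of 96 alternative medians of the other lists 4 moved by more than the spread among the list's genes, all of the distal convoluted tubule. Some medians of other lists also changed sign with the floor, within that spread. Among them, the PI3 kinase and AKT median went from 0.03 to -0.03 with a floor of 7. The growth hormone median went from 0.10 to -0.02 with floors of 5, 7 or none. No paired analysis was possible because each genotype has 1 array.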
